A study of Mus musculus with 8 samples.

Results

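Thymic epithelial cells (TEC) make the molecules that draw blood-borne progenitors into the thymus, hold them there and drive their development into T cells. Here 5 of these ligands, Dll4, Il7, Kitl, Ccl25 and Cxcl12, were followed across 8 single-cell RNA sequencing libraries of mouse TEC. The ligands were chosen by symbol, each matched 1 row of the gene lists, and they are 5 of the 27514 genes that the gene lists of all libraries shared. All mice were wild-type C57 B6 (CD45.2). Viable (DAPI-) EpCAM+ CD45- cells were sorted: at E13.5 without further selection (total TEC), and otherwise as Ly51+ UEA-1- cortical TEC (cTEC) or Ly51- UEA-1+ medullary TEC (mTEC), where Ly51 is an antigen of cortical epithelium and UEA-1 a lectin that binds medullary epithelium. Total TEC of E13.5 gave 1 library, as did cTEC of each later age up to birth (E15.5, E17.5 and newborn, NB, 0 to 2 days), while adult mice (4 to 6 weeks) gave 2 libraries of cTEC and 2 of mTEC. Adult replicate 1 belonged to data set 1 with the E13.5, E15.5 and NB libraries, and adult replicate 2 to data set 2 with the E17.5 library. Fetal thymi were dispersed with trypsin and EDTA, whereas newborn and adult thymi were digested with Liberase and DNase and enriched on Percoll, so that this step cannot be told apart from age between E17.5 and NB cells. Nothing states that the paired adult libraries came from separate animals, so p-values between adult cTEC and mTEC rest on the spread between these libraries, which may be technical. In the comparisons over age, each age before the adult had 1 library. The spread there also holds differences between ages, and in the slope departures from a line, which makes a call less likely.

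Each ligand acts through a receptor on the thymocyte or its progenitor. Dll4 is a membrane-bound ligand of Notch1, the signal that commits progenitors to the T cell lineage. Il7 is a secreted cytokine that sustains survival and division of early thymocytes through the receptor chains Il7r and Il2rg, and Kitl (stem cell factor) supports the earliest progenitors through Kit. Ccl25 and Cxcl12 are chemokines that attract cells carrying Ccr9 and Cxcr4. The transcription factor Foxn1, which TEC need to differentiate, is known to bind a short core sequence, GACGC, and Dll4 and Ccl25 are among the genes that depend on it.

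In GRCm38, the build of the counts (mm10), Dll4 lies on chromosome 2 from 119325784 to 119335962 (plus strand), Il7 on chromosome 3 from 7569994 to 7613760 (minus strand), Kitl on chromosome 10 from 100015630 to 100100416 (plus strand), Ccl25 on chromosome 8 from 4325210 to 4360020 (plus strand) and Cxcl12 on chromosome 6 from 117168535 to 117181367 (plus strand). All are protein-coding in GENCODE M21. RefSeq promoters (GRCm38.p6) were at hand for 4 of the 5 genes, Il7 being the exception, and Ccl25 has 2 annotated starts. The 250 bases before each start are shown because the ligands differed together between adult cTEC and mTEC, as given below. Capitals mark the letters GACGC, read on either strand, so that GCGTC marks a match on the minus strand.
Dll4, chr2:119325534-119325783, plus strand: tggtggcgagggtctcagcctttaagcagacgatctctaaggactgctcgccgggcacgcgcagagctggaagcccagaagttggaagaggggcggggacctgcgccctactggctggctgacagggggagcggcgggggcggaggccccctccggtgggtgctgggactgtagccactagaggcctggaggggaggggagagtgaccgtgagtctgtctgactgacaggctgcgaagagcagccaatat
Kitl, chr10:100015571-100015820, plus strand: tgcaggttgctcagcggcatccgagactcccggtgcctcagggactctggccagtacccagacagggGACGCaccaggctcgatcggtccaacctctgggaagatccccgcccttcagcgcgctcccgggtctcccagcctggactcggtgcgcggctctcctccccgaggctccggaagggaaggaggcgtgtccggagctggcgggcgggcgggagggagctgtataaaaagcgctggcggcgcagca
Ccl25 upstream start, chr8:4324960-4325209, plus strand: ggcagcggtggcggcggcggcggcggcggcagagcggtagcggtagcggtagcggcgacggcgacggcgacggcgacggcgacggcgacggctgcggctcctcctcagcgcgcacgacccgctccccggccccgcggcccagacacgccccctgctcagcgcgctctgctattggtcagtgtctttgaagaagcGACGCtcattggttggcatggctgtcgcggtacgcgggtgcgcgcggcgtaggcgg
Ccl25 downstream start, chr8:4349338-4349587, plus strand: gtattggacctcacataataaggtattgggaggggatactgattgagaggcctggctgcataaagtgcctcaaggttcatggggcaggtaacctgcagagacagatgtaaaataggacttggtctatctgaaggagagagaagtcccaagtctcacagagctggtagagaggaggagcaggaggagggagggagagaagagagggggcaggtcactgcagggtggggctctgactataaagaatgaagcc
Cxcl12, chr6:117168285-117168534, plus strand: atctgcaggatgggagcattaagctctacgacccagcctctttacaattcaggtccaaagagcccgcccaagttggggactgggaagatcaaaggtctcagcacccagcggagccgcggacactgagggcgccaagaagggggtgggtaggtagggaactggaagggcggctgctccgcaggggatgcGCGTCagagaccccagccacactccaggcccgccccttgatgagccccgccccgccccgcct
In windows that also held the 50 bases after the start, GACGC was matched in 3 of the 5 promoters, and 27.2% of all 32851 RefSeq promoters of that length held it. The match of Cxcl12 began 62 bases, that of Ccl25 56 bases and that of Kitl 183 bases before the RefSeq start used, and 1 more match of Ccl25 lay after its upstream start. For Kitl the RefSeq start lies downstream of the gene start given above (100015630). Most of the Kitl window, with its match, thus lies inside the gene as annotated in GENCODE. The letters TATAAA, the TATA box motif, were found before the downstream start of Ccl25 and before that of Kitl, and in 13.6% of all promoters. These are matches of letters and show no binding, and counting at the 3′ end of transcripts does not tell which start of Ccl25 was used.

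The limits of the study on mitochondrial unique molecular identifiers (UMIs) and detected genes left 25750 of 28334 cells, and after clusters of thymocyte-like and parathyroid-like cells were set aside, 25435 epithelial-like cells remained. Libraries held from 493 to 8350 of these cells and from 2177398 to 90103548 UMIs, with medians of 3955 to 11386 UMIs per cell. Adult cTEC 1 was the smallest and shallowest library. No more than 1.90% of the barcodes of the smaller library were shared between any 2 libraries. One label gives bone marrow as the origin of the cells and another gives thymus. The thymic epithelial gene Foxn1 was at 41.4 to 142 CPM (counts per 1000000 UMIs) and Epcam at 305 to 1000 CPM in the 8 libraries, and Ptprc, which encodes CD45, at no more than 3.71 CPM. Psmb11, a proteasome subunit of the cortex, was at 667 and 1395 CPM in adult cTEC and at 3.85 and 8.57 CPM in adult mTEC, and Aire, a medullary regulator, at 9.27 and 2.72 CPM against 435 and 399 CPM. In adult cTEC 54.7% and 72.2% of cells carried a transcript of Psmb11 or of the cortical protease gene Prss16, against 97.1% to 99.2% of cTEC from E15.5 to birth and 59.7% of E13.5 total TEC. The E13.5 library and the cTEC libraries are called the cortical line below, although E13.5 TEC were not sorted through the cortical gate. Differences between E13.5 and later ages thus also hold this difference in sort.

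For each ligand below, the level is the CPM of a library's summed UMIs, with the exact 95% Poisson interval in brackets, and the share is that of cells with a UMI after each cell was thinned to 2000 UMIs, with exact binomial intervals. These intervals cover counting error only. Cells under 2000 UMIs were left out of the shares, 65 cells (13.2%) of adult cTEC 1 and at most 2.43% of the cells of any other library. Shares are set beside those in the 124 parathyroid-like cells of the E13.5 library, an epithelium that should lack these ligands, which had a median of 4256 UMIs against 7229 in the epithelial-like cells. No such cells were set beside the adult libraries, whose free RNA may differ.

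Dll4, the Notch ligand, was at 20.3 CPM (18.1 to 22.8) in E13.5 TEC, 79.9 CPM (76.6 to 83.4) in E15.5 cTEC, 52.1 CPM (50.6 to 53.6) in E17.5 cTEC and 55.1 CPM (52.1 to 58.2) in NB cTEC. Adult cTEC held 19.9 CPM (14.4 to 26.8, from 43 UMIs) and 51.0 CPM (44.3 to 58.4), and adult mTEC 5.05 and 5.24 CPM. E15.5 cTEC were thus the highest and adult mTEC the lowest, while the adult cTEC libraries differed from each other by 2.56-fold, the lower at the E13.5 value within counting error and the higher just below those at E17.5 and birth. In order of level, E15.5, NB, E17.5 cTEC and the higher adult cTEC library were neighbours that lay within this fold of each other. The thinned share of Dll4 cells rose from 4.48% (3.58 to 5.52) at E13.5 to 14.9% (13.8 to 16.1) at E15.5, was 9.44% at E17.5 and 10.5% at birth, and was 4.91% (3.06 to 7.40) and 7.09% (5.04 to 9.64) in adult cTEC. In adult mTEC it was 1.32% and 1.35%, within the interval of the parathyroid-like cells of the E13.5 library (1 of 124 cells, 0.806%, 0.0204 to 4.41), although Dll4 differed between clusters of mTEC, as given below. Without thinning the shares were 13.6%, 43.4%, 39.8%, 28.8%, 7.51%, 22.2%, 4.42% and 5.06% in the same order of libraries, and 1.61% in parathyroid-like cells.

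Il7 was the ligand whose adult cTEC libraries lay closest together, 1.15-fold apart. Its level was 267 CPM (259 to 276) at E13.5, 355 CPM (348 to 362) at E15.5, 311 CPM (308 to 315) at E17.5 and 284 CPM (277 to 291) at birth. Adult cTEC were at 156 CPM (140 to 174) and 179 CPM (166 to 192), below all earlier libraries, and adult mTEC at 99.1 CPM (94.4 to 104) and 54.8 CPM (53.1 to 56.6), below both adult cTEC libraries. The order was therefore E15.5, E17.5, NB, E13.5, adult cTEC and adult mTEC, where the first 4 each lay within 1.15-fold of the next. Thinned shares followed the same order, with 39.9%, 48.0%, 44.7% and 41.1% of cells from E13.5 to birth, 26.2% (22.1 to 30.6) and 28.4% (24.5 to 32.4) in adult cTEC, and 17.9% and 10.1% in adult mTEC. Il7 was found in 1.61% (0.196 to 5.70) of the parathyroid-like cells. The unthinned shares were 74.6%, 86.7%, 90.5%, 77.0%, 39.96%, 62.2%, 48.9% and 36.0%, and 4.84% in parathyroid-like cells.

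Kitl had the smallest slope over age of the 5 ligands, as given below. It was at 72.5 CPM (68.1 to 77.0) at E13.5, 79.7 CPM (76.4 to 83.1) at E15.5, 52.3 CPM (50.8 to 53.8) at E17.5 and 83.9 CPM (80.2 to 87.7) at birth. Adult cTEC were at 58.4 CPM (48.6 to 69.5) and 90.1 CPM (81.1 to 99.8), 1.54-fold apart, and this pair took in the E13.5, E15.5 and NB values. Adult mTEC were at 4.27 CPM and 6.37 CPM. The lowest library of the cortical line, E17.5 cTEC, was still far above both mTEC libraries. Thinned shares were 14.1%, 15.2%, 9.53% and 15.2% from E13.5 to birth and 12.6% and 15.9% in adult cTEC, whereas 0.757% and 1.26% in adult mTEC were within the interval of the parathyroid-like cells of the E13.5 library (0.806%, 0.0204 to 4.41). Its range over clusters of mTEC is given below. The unthinned shares were 38.9%, 43.5%, 40.7%, 40.5%, 20.7%, 42.4%, 3.85% and 6.18%, and 2.42% in parathyroid-like cells.

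Ccl25, the chemokine of Ccr9+ cells, was at 620 CPM (607 to 633) at E13.5, 2167 CPM (2150 to 2185) at E15.5, 2399 CPM (2389 to 2409) at E17.5 and 4101 CPM (4075 to 4128) at birth. Adult cTEC were at 2431 CPM (2366 to 2498) and 3868 CPM (3807 to 3929), 1.59-fold apart, and adult mTEC at 228 CPM (221 to 236) and 315 CPM (311 to 320). The E13.5 value, of total TEC, was the lowest of the cortical line, 3.50-fold below E15.5 cTEC of the same data set. The adult cTEC values lay between those at E17.5 and at birth. Shares of Ccl25 cells did not follow these levels. The thinned share was 48.0% at E13.5 and 88.2%, 89.0% and 88.8% at E15.5, E17.5 and birth, but 56.3% (51.5 to 61.1) and 58.4% (54.1 to 62.7) in adult cTEC, whose levels were within the range from E17.5 to birth. In cells of at least 2000 UMIs the median cell held 3242 CPM at birth and 333 and 899 CPM in adult cTEC, and the cell at the 90th percentile 8619 CPM at birth and 6575 and 9804 CPM in adult cTEC. The 10% of cells with most Ccl25 UMIs held 24.3% to 32.6% of them from E15.5 to birth, and 58.4% and 43.2% in adult cTEC. Adult mTEC had thinned shares of 10.2% and 19.0%, against 5.65% (2.30 to 11.3) of parathyroid-like cells, an interval that takes in the value of replicate 1 and not that of replicate 2. The unthinned shares were 68.6%, 95.9%, 98.8%, 94.4%, 61.9%, 64.9%, 20.3% and 46.2%, and 12.9% in parathyroid-like cells.

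Cxcl12, which acts through Cxcr4, was at 150 CPM (143 to 156) at E13.5, 626 CPM (617 to 636) at E15.5, 969 CPM (963 to 976) at E17.5 and 883 CPM (871 to 895) at birth. Adult cTEC were at 751 CPM (715 to 788) and 1615 CPM (1576 to 1655), 2.15-fold apart, and adult mTEC at 19.2 CPM (17.1 to 21.4) and 10.8 CPM (10.0 to 11.6). As for Ccl25, E13.5 TEC were lowest in the cortical line, 4.19-fold below E15.5 cTEC, while the cTEC libraries from E15.5 to birth lay within the fold between the adult pair. The thinned shares were 26.3%, 69.5%, 83.9% and 79.8% from E13.5 to birth, 59.1% (54.3 to 63.8) and 80.5% (76.8 to 83.8) in adult cTEC, and 4.67% (3.68 to 5.83) and 2.31% (1.93 to 2.75) in adult mTEC, where 1.61% (0.196 to 5.70) of parathyroid-like cells had a UMI. The unthinned shares were 56.2%, 95.9%, 99.0%, 97.7%, 67.5%, 86.7%, 11.9% and 8.30%, and 4.03% in parathyroid-like cells. Fibroblasts of many organs also make Cxcl12, and the sort for EpCAM+ cells would remove them. Of 8 mesenchymal markers, 6 were detected in each adult cTEC library and 8 in each adult mTEC library, with summed levels of 511 and 329.5 CPM against 133 and 97.4 CPM. The proteoglycan gene Dcn made up 499 and 310 CPM of the cTEC sums, the collagen genes Col3a1 4.17 and 4.46 CPM, Col1a2 2.32 and 1.24 CPM and Col1a1 0 and 0.248 CPM, and Pdgfra had no UMI in adult cTEC (the limit of 3 counts is 1.39 and 0.743 CPM). Dcn was at 78.4 and 46.8 CPM in adult mTEC. Of 7 mesenchymal markers tested by edgeR, 1 was called higher and 3 lower in adult cTEC than in adult mTEC. Col1a1 (5.84 and 7.83 CPM), Pdgfrb (5.35 and 6.37 CPM) and Thy1 (34.0 and 28.9 CPM) were higher in mTEC than in cTEC. The part of such cells in the level of Cxcl12 was not tested.

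**Figure D1:**
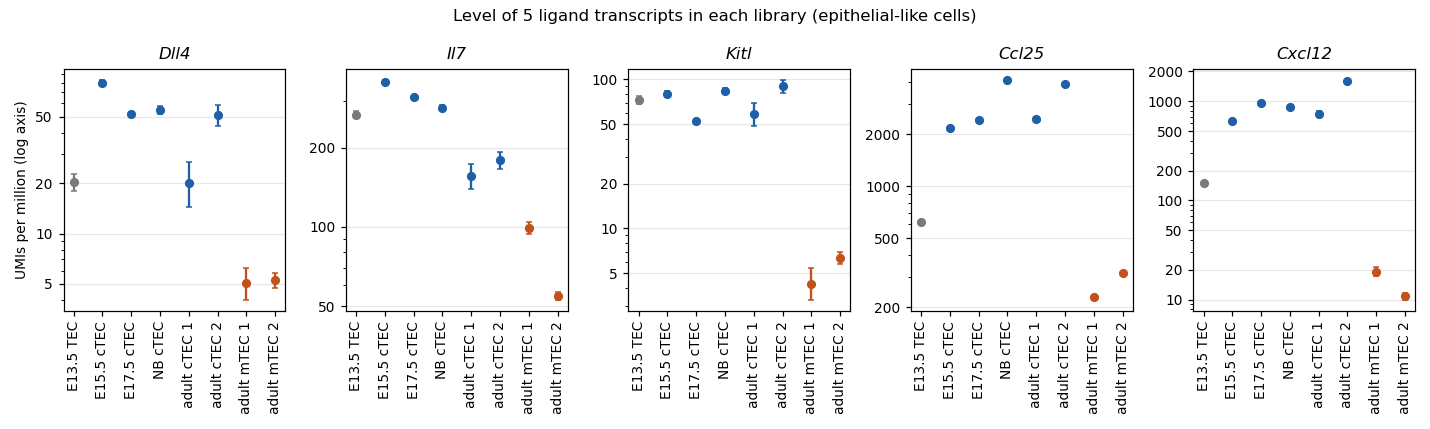
Level of each ligand in the 8 libraries, in CPM on log axes that differ between panels, with exact 95% Poisson intervals (often smaller than the point). Grey is E13.5 total TEC, blue the cTEC libraries and orange the adult mTEC libraries, which are lowest for every ligand: Cxcl12 is at 19.2 and 10.8 in mTEC and at 751 and 1615 in adult cTEC.

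Adult cTEC and adult mTEC are the groups with replicate libraries, and their comparison asks which lineage holds the ligands. All 5 ligands were called higher in adult cTEC, where 32.4% of the 15627 genes tested were called, 11.2% being higher and 21.2% lower in cTEC. By edgeR's quasi-likelihood test with Benjamini-Hochberg adjustment, Cxcl12 was 73.2-fold higher (log2 difference 6.19 ± 0.53 SE, adjusted p = 7.53e-16) and Kitl 13.3-fold higher (3.73 ± 0.43, adjusted p = 4.05e-11). Ccl25 was 10.9-fold higher (log2 difference 3.45 ± 0.46 SE, edgeR adjusted p = 4.88e-09) and Dll4 6.11-fold higher (2.61 ± 0.45, adjusted p = 2.30e-06). Within a data set, the ratio of the CPM in cTEC to that in mTEC was 39.1 and 149.6 for Cxcl12, 13.7 and 14.1 for Kitl, 10.6 and 12.3 for Ccl25, and 3.94 and 9.72 for Dll4. Il7 had the smallest difference, 1.12 ± 0.39 on the log2 scale (edgeR adjusted p = 0.0211), with ratios of 1.57 and 3.27 within the data sets. Il7 lost its call with DESeq2 (adjusted p = 0.0681), without a filter on low counts (edgeR, 0.0501) or without a term for the data set (edgeR, 0.0806), and when any 1 of the 4 libraries was left out, a fit that also has no such term. The median log2 difference of the ligands was 3.45, against -0.14 over all genes tested. Markers of other cells also differed by edgeR. Of those tested, 4 of 10 thymocyte and 2 of 6 endothelial markers were higher in cTEC and none lower. Lower in cTEC were 5 of 5 erythroid markers (sums of 1.39 and 2.23 against 84.9 and 109 CPM) and 18 of 40 cell-cycle genes, and none was higher. Their part in the ligand differences was not tested.

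Over the cortical line, the slope on stage rank (E13.5 to adult, 6 libraries) asks whether a ligand rose or fell with age. None of the 5 ligands was called by edgeR's quasi-likelihood test, where 7.55% of 14342 genes were (4.78% rising and 2.78% falling), and none had an unadjusted p under 0.05 or was called by DESeq2. The slopes per stage were 0.45 ± 0.20 (SE) for Ccl25 (edgeR adjusted p = 0.204), 0.43 ± 0.19 for Cxcl12 (0.194), -0.23 ± 0.13 for Il7 (0.295), -0.09 ± 0.25 for Dll4 (0.843) and 0.03 ± 0.11 for Kitl (0.886). For Ccl25 and Cxcl12 the E13.5 library, of total TEC, lay well below all others, and without it the slopes became 0.17 and 0.16. The signs of Dll4 and Kitl changed with the adult library that was left out. The median of the 5 slopes was 0.03, against 0.00 over all genes.

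Adult cTEC were also compared with the 3 earlier libraries sorted through the same gate. Again none of the ligands was called by edgeR's quasi-likelihood test, where 5.53% of 14548 genes were (4.33% higher and 1.20% lower in the adult). Il7 was 2.03-fold lower in the adult (log2 difference -1.02 ± 0.30 SE, edgeR adjusted p = 0.105), was the only ligand with an unadjusted p under 0.05 (0.0118), lay below the earlier libraries in both adult replicates, and was called by DESeq2 (adjusted p = 0.0139) and by edgeR without a filter on low counts (0.0421). The difference of Dll4 was -1.03 ± 0.46 (edgeR adjusted p = 0.220), but without adult cTEC 1, the library with 43 Dll4 UMIs, it was -0.15, and without adult cTEC 2 it was -1.88, with an edgeR or DESeq2 adjusted p of at least 0.0561 under all 12 alternatives. Cxcl12 (0.22 ± 0.37), Kitl (-0.01 ± 0.35) and Ccl25 (0.00 ± 0.49) had differences smaller than their standard errors, each with an edgeR adjusted p of at least 0.741. The median of the 5 differences was -0.01, against -0.08 over all genes. In these libraries the summed mTEC I markers were at 288 to 714 CPM from E15.5 to birth and at 8478 and 2450 CPM in adult cTEC, with 4 of 7 tested called higher in the adult. Of the mTEC II markers 5 of 8 were higher (sums of 36.7 to 86.0 CPM against 482 and 216 CPM), of the endothelial markers 4 of 6 (9.08 to 19.98 against 80.1 and 20.5 CPM) and of the myeloid markers 3 of 8 (3680 to 8905 against 13269 and 13299 CPM, with Itgax at 0 in 4 of these 5 libraries). The myeloid sums do not measure myeloid cells, since Csf1r, Itgax, Lyz2 and Tyrobp had no UMI at E15.5, where the sum was 3680 CPM. Only 1 of 5 mesenchymal markers tested was called higher (sums of 8.37 to 34.4 against 511 and 329 CPM, with Pdgfra at 0 in both adult libraries), and 1 of 11 thymocyte markers (6.40 to 19.1 against 52.4 and 129 CPM). The part of such cells in the ligand levels was not tested.

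**Figure D2:**
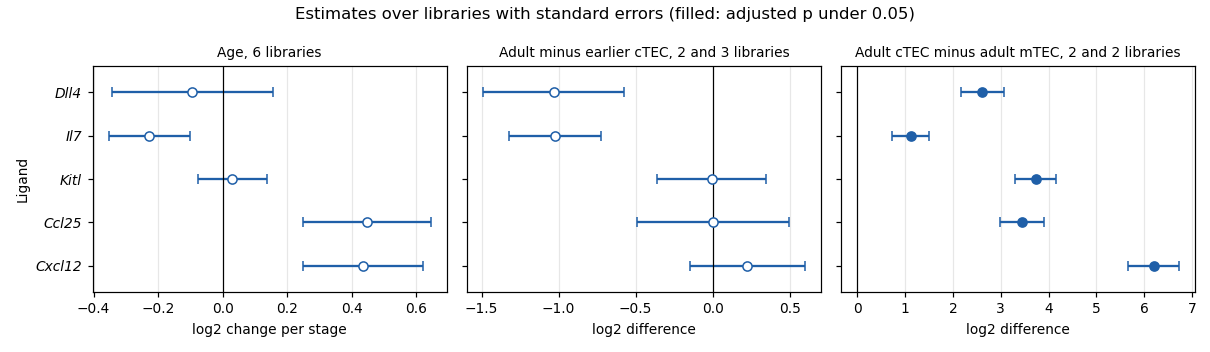
Estimate for each ligand in the 3 fits over libraries, as log2 change per stage or log2 difference, with standard errors and axes that differ between panels; filled points have an adjusted p under 0.05. The ligands were called in the comparison of adult cTEC with adult mTEC, from 1.12 for Il7 to 6.19 for Cxcl12, and in neither comparison over age.

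Related genes of the same pathways were read from lists, whose counts between adult cTEC and adult mTEC stand against 11.2% of all genes tested being higher and 21.2% lower in cTEC. Of the 5 other Notch ligands, 3 were higher in adult cTEC than in adult mTEC by edgeR (Dll1 by 2.85, Jag2 by 2.24 and Jag1 by 2.02 on the log2 scale) and 2 were lower, Dll3 and Dlk1, an inhibitory ligand. Both were without a UMI in adult cTEC (the limit of 3 counts is 1.39 and 0.743 CPM) and at 16.8 to 39.7 CPM in adult mTEC. Over age Dll1 rose by 1.24 per stage and Dlk1 fell by 1.53, where 4.78% of all genes rose and 2.78% fell. Jag1 was higher in adult than in earlier cTEC by 2.47 (edgeR adjusted p = 0.0128), where 4.33% of all genes were higher, but no gene was called by edgeR without adult cTEC 1, adult cTEC 2 or E17.5 cTEC, where 1257, 2673 and 2493 genes had an unadjusted p under 0.05. Of the 8 genes that modify Notch ligands or receptors, Mib1, a ubiquitin ligase that Notch ligands need to signal, was higher in cTEC (1.47), Mfng and Neurl1a were lower, and 5 were not called; none was called over age. Of 2 atypical chemokine receptors tested, Ackr4, which takes up Ccl25 among others, was higher in adult cTEC by 6.29, at 208 and 119 CPM against 2.29 and 1.59 CPM, and Ackr1 was lower. The other chemokines of the thymus went largely the other way from Ccl25 and Cxcl12: of 11, 7 were lower in adult cTEC and only Cx3cl1 higher (1.25). Those lower were Ccl17, Cxcl14, Ccl22, Cxcl9, Ccl19, Ccl5 and Ccl20, with log2 differences from -6.96 to -1.83; Ccl19 has near-identical copies, so that its counts are uncertain. Over age 6 of 10 of these chemokines rose and none fell, where 4.78% of all genes rose, among them Ccl20 (6.33 per stage), Ccl19 (1.95) and Cxcl10 (1.70). Markers of other cells rose with them by the same test, 4 of 7 tested for mTEC I, 7 of 11 for thymocytes and 3 of 7 of the myeloid list, whose sums do not measure myeloid cells. Their part in this rise was not tested. Without adult cTEC 1 only 16 genes in all were called over age.

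Of the receptors of the ligands, Il7r was at 3.18 CPM or less and Ccr9 at 3.96 CPM or less in all libraries, and Cxcr4 at 3.24 CPM or less. Il2rg was at 73.3 and 76.8 CPM in adult mTEC and at 6.02 CPM or less elsewhere. Counts between adult cTEC and adult mTEC in this paragraph also stand against 11.2% of all genes tested being higher and 21.2% lower in cTEC. Of 6 receptors tested, Il2rg and Kit were lower in adult cTEC than in adult mTEC (edgeR log2 differences of -3.78 and -3.42) and none was higher. Notch1 was at 10.9 to 45.7 CPM and was highest in E13.5 TEC. Of 17 other cytokines and growth factors, 16 were tested between lineages: 4 were higher in cTEC (Bmp4, Vegfa, Il34 and Wnt4) and 6 lower, led by Fgf21 (-6.52). In the age trend 3 of 17 rose (Tslp, Csf1 and Il34), where 4.78% of all genes did, in a fit that called 16 genes in all without adult cTEC 1. Of 6 adhesion molecules, Alcam (2.44) and Cadm1 (1.24) were higher in adult cTEC and Ncam1 lower (-7.06). Of Foxn1 and 9 cortical or TEC genes, 7 were higher in cTEC, led by Psmb11 (7.32) and Prss16 (5.92), and Hdc was lower (-5.27). Scx was not called, and the difference of Foxn1 itself was 0.89 ± 0.38 (edgeR adjusted p = 0.0601).

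Single cells show whether the ligands are made by the same cells. After thinning to 2000 UMIs, the mean number of ligands with a UMI per cell was 1.33 at E13.5, 2.36, 2.37 and 2.35 at E15.5, E17.5 and birth, 1.59 and 1.90 in adult cTEC, and 0.348 and 0.341 in adult mTEC. No ligand was found in 27.0% of E13.5 cells, in 1.36% to 3.13% of cTEC from E15.5 to birth, in 18.7% and 11.9% of adult cTEC and in 69.3% and 69.6% of adult mTEC. Had the 5 detections been independent of each other, cells without any would have made up 18.9% at E13.5, 10.96% and 4.55% of adult cTEC and 68.9% and 69.2% of adult mTEC. Cells without a ligand were more frequent than under independence in all 8 libraries at this depth, with the widest gaps at E13.5 and in adult cTEC. At 3000 UMIs this held for E13.5 TEC and the cTEC libraries and not for adult mTEC (60.3% against 60.4% and 61.2% against 61.5%). All 5 ligands together were found in 0.192% to 0.817% of cells of the cortical line and in none of 1585 and 5492 mTEC, where the limit of 3 cells is 0.189% and 0.0546%.

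Pairs of ligands were counted in the same way. Of the 10 pairs, all were found together more often than the product of their shares predicts at E13.5, with ratios of observed to expected cells from 1.05 to 1.45. In adult cTEC 9 of 9 and 10 of 10 pairs with at least 5 expected cells were above 1, from 1.03 to 1.61 and from 1.06 to 1.62, whereas from E15.5 to birth ratios lay between 0.923 and 1.13. At 3000 UMIs 8 of 9 and 9 of 10 pairs of adult cTEC were above 1, with lowest ratios of 0.923 and 0.966, and without the 10% of cells with most UMIs 7 of 8 and 9 of 9. Of the pairs with at least 5 expected cells, Dll4 and Ccl25 had the highest ratio in both adult cTEC libraries (19 and 35 cells). Of Dll4+ cells in adult cTEC, 90.5% and 94.6% also had Ccl25, against 54.5% and 55.7% of cells without Dll4. Over cells, Pearson's r of the log-normalised levels of Ccl25 and Cxcl12 was 0.46 at E13.5, 0.36, 0.34 and 0.23 at E15.5, E17.5 and birth and 0.55 and 0.57 in adult cTEC (428 and 522 cells), as a description of cells that share a library and its depths. In adult cTEC 39.7% and 54.8% of cells had both chemokines and 24.3% and 15.9% neither, and at birth 71.5% and 2.94%. In adult mTEC, Ccl25 and Cxcl12 were found together in 3 cells where 7.52 were expected in replicate 1 (0.399) and in 27 where 24.2 were expected in replicate 2 (1.12), so that the replicates lay on either side of 1. Il7 was found with Cxcl12 more often than expected (2.04 and 2.57, from 27 and 33 cells), and with Ccl25 less often in replicate 1 (0.591) and near expectation in replicate 2 (0.935).

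**Figure D3:**
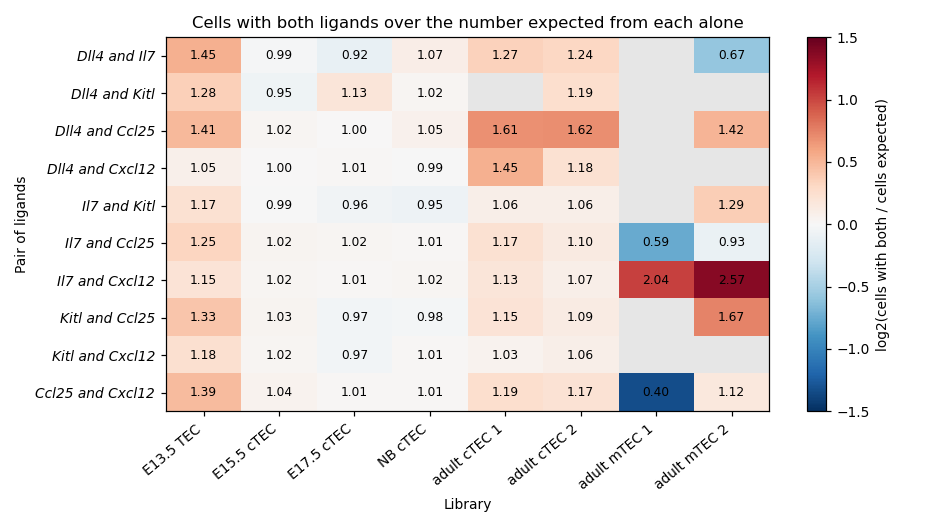
Cells with both ligands of a pair over the number expected from each ligand's share, per library, after thinning to 2000 UMIs; colour gives the log2 of the printed ratio, and grey squares have under 5 expected cells. Ratios stay between 0.923 and 1.13 from E15.5 to birth, exceed 1 in E13.5 TEC and adult cTEC, and reach 2.04 and 2.57 for Il7 with Cxcl12 in adult mTEC.

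Cells were then split by a transcript of Psmb11 or Prss16 in the thinned counts, since adult cTEC held many cells without one. Ccl25 had the widest ratio between these classes. In adult cTEC 1 and 2 it was at 4038 and 4896 CPM in cells with such a transcript and at 241 and 163 CPM in cells without, a ratio of 16.8 and 30.0, against 4.23 to 5.33 at E13.5 and in cTEC up to birth. Dll4 was at 31.8 and 63.1 CPM against 4.82 CPM (4 UMIs) and 8.05 CPM (7 UMIs), and the level in adult cells with a cortical transcript was near that of all NB cTEC in replicate 2 and below it in replicate 1. Cxcl12 was 3.28 and 3.64 times as high with a cortical transcript, but cells without one still held 323 and 528 CPM, far above the 19.2 and 10.8 CPM of adult mTEC. Il7 differed by 1.80 and 1.41 times and Kitl by 1.10 and 1.55 times. Kitl was at 55.4 and 63.2 CPM in adult cTEC without a cortical transcript, also far above its level in mTEC. Adult cells with a cortical transcript were deeper (median 4846 and 7990 UMIs) than those without (3585 and 5647). In E13.5 TEC the ratios were 4.23 for Ccl25, 3.54 for Dll4, 2.42 for Cxcl12, 1.85 for Il7 and 1.77 for Kitl.

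**Figure D4:**
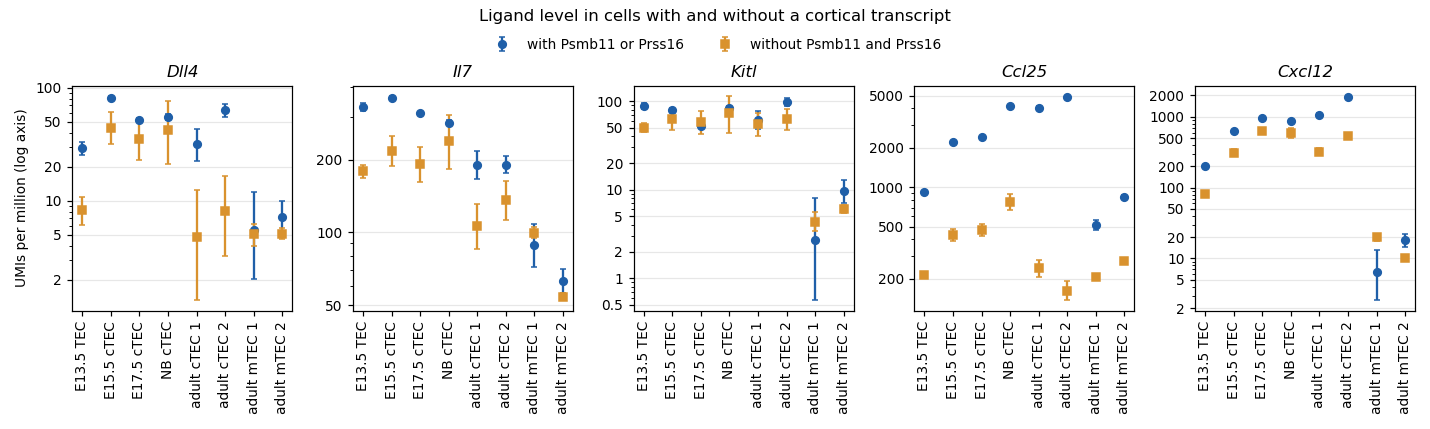
Level of each ligand in cells with (blue circles) and without (orange squares) a UMI of Psmb11 or Prss16 in the 8 libraries, in CPM on log axes that differ between panels, with exact 95% Poisson intervals. In adult cTEC the gap is widest for Ccl25, 4038 and 4896 against 241 and 163, and small for Kitl, 61.1 and 97.7 against 55.4 and 63.2.

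Ligand levels also differed with the cell cycle. Cells were called cycling where transcripts of 40 cell-cycle genes made up at least 0.2% of UMIs; this range held 76.2% of E13.5 TEC, 30.5%, 12.7% and 12.1% of cTEC at E15.5, E17.5 and birth, 2.03% and 7.29% of adult cTEC and 11.2% and 11.9% of adult mTEC, and 4 to 234 cells of a library lay between 0.15% and 0.25%. Ccl25 was lower in cycling cells of all 8 libraries, at 490 against 1235 CPM at E13.5, 1401 against 2612 CPM at E15.5, 1051 against 2644 CPM at E17.5 and 2257 against 4405 CPM at birth. In adult cTEC 2 it was at 1093 CPM in 39 cycling cells and at 4175 CPM in the rest. Kitl did not share this, at 82.5 against 78.1 CPM at E15.5, 66.1 against 49.7 CPM at E17.5 and 100 against 81.2 CPM at birth, with a ratio of cycling to resting cells of 1.06 to 1.40 in the cTEC libraries and 0.815 at E13.5. Cxcl12 and Dll4 were, like Ccl25, lower in cycling cells of all 8 libraries. In the cTEC libraries the ratio was 0.556 to 0.915 for Cxcl12 and 0.833 to 1.12 for Il7, where adult cTEC 1 held only 10 cycling cells. For Dll4 it was 0.854 to 0.918 from E15.5 to birth and 0.559 in adult cTEC 2, with no UMI in the cycling cells of adult cTEC 1. Cycling cells were deeper in every library, with medians of 6912 to 18928 UMIs against 3918 to 10571.

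Groups of cells that stood apart within a library were read separately. The E13.5 library held 104 cells of a cluster marked by Hhex and Nkx2-1, transcription factors of the thyroid, and in these Dll4 had no UMI (the limit of 3 counts is 4.52 CPM), Il7 was at 12.1 CPM, Kitl at 3.01 CPM (2 UMIs), Ccl25 at 40.7 CPM and Cxcl12 at 75.3 CPM. These cells were low in all 5 ligands, and least so in Cxcl12. Of the marker lists, 4 of 8 mesenchymal and 3 of 6 thyroid markers were 4-fold higher in this cluster than in other cells, and their part in the Cxcl12 level was not tested. The E17.5 library held 944 cells with many haemoglobin UMIs, in which Ccl25 was at 590 CPM against 2609 CPM in the other cells, Cxcl12 at 808 against 988 CPM, Il7 at 231 against 321 CPM, Dll4 at 49.7 against 52.4 CPM and Kitl at 56.8 against 51.7 CPM. Leaving out both clusters moved no library level of a ligand by more than 1.09-fold.

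Within adult mTEC, the clusters highest in Ccl25 were not those highest in Il7. In cells of the clusters that took the name mTEC I from their markers, 2 in each library and pooled here, with 20511 and 14342 CPM of Ccl21a, the medullary chemokine of immature mTEC, Il7 was at 201 and 146 CPM, above every other cluster of its library, and Cxcl12 was also highest at 56.8 and 49.8 CPM. Ccl25 was at 13.1 and 84.3 CPM there, and a further cluster of replicate 1 with 13958 CPM of Ccl21a, led by Lypd1 and Sprr2a3, held 155 CPM of Il7 and 24.1 CPM of Ccl25. Ccl21a has near-identical copies, so that its counts are uncertain. In the mTEC II cluster of replicate 1, with 958 CPM of Aire, Ccl25 was at 593 CPM and Il7 at 33.2 CPM. No cluster of replicate 2 passed the rule for that name, but its clusters with most Aire (737 and 590 CPM) had 449 and 634 CPM of Ccl25 and 40.1 and 23.9 CPM of Il7. Ccl25 was highest in a cluster of replicate 1 led by Spink1, Gsta4 and Spink5 (656 CPM) and in the cluster of replicate 2 with 590 CPM of Aire (634 CPM), led by Mt4, S100a9 and Xcl1. Other clusters held both, with 231 CPM of Ccl25 and 64.2 CPM of Il7 in cells of replicate 1 led by Rhox12 and Atp4b, and 235 and 80.9 CPM in cells of replicate 2 led by Ccl6 and Ccl20. Clusters of cycling mTEC were low in Ccl25 (22.4 and 48.8 CPM). The mTEC III cluster, named in replicate 2 only, was at 135 CPM of Ccl25 and 36.6 CPM of Il7, and mTEC IV tuft cells of replicate 2 at 48.0 and 22.8 CPM. The mTEC III cluster was led by Spink5, Calm4, Gsta4 and Spink1, genes that also led the cluster of replicate 1 with 656 CPM of Ccl25. That cluster had 4 of 8 mTEC III markers raised and missed the rule for the name. The replicates thus differed in Ccl25 for clusters with like leading genes.

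Dll4 also differed between mTEC clusters, and the levels of Kitl are given beside it. Dll4 reached 25.6 CPM (14.6 to 41.5, from 16 UMIs) in 99 cells of replicate 2 led by Car8, Speer4c and Clca3b, which is as high as in E13.5 TEC or adult cTEC 1 within counting error, and 13.3 CPM (10.6 to 16.4) in 676 cells led by Klk1b26 and Ccl22, whereas it was at 0.284 CPM (1 UMI) and 1.60 CPM in mTEC I. Kitl ranged from 1.42 to 6.51 CPM in the clusters of replicate 1 with a UMI and from 1.52 to 15.7 CPM in those of replicate 2. Whether this range exceeds counting error was not tested. The clusters were made without the 5 ligands among the variable genes, but genes that vary with a ligand helped to form them, so that these values are a description.

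**Figure D5:**
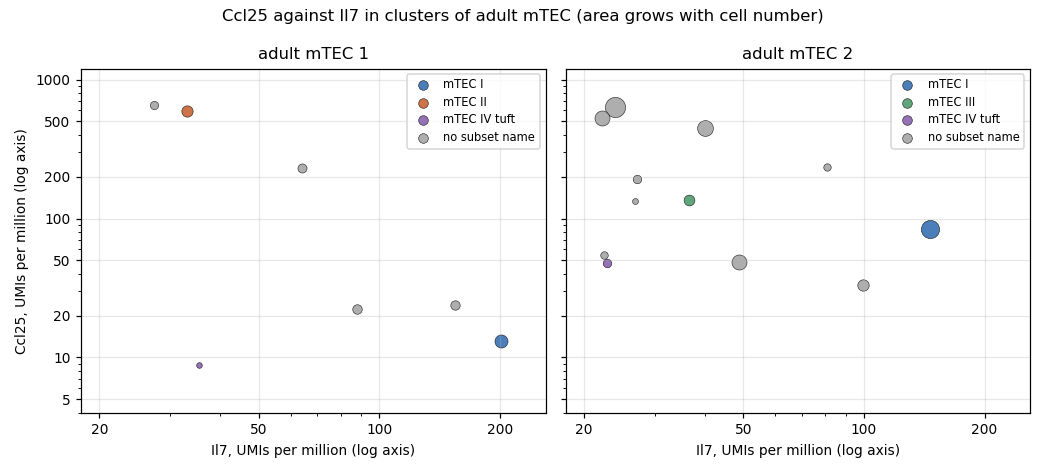
Ccl25 against Il7 in the clusters of each adult mTEC library, in CPM on log axes, with area growing with the number of cells and colour giving the mTEC subset where the markers named one. The mTEC I point of each library pools 2 clusters and lies at the right (Il7 201 and 146) with 13.1 and 84.3 of Ccl25, and the clusters highest in Ccl25 (656 and 634) lie at the left.

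Genes whose level ran most like a ligand were sought among 5984 genes with a mean of at least 20 CPM, by Pearson's r of log2(CPM + 1) over the 8 libraries. All 5 ligands were lowest in the mTEC libraries, so that r also reads the gap between lineages, and it is a description over 8 points. The closest of the 5 genes taken for each ligand were Rassf5 to Dll4 (0.994), Rbms1 to Il7 (0.985), Prkacb to Kitl (0.987), Tepp to Ccl25 (0.984) and Pltp to Cxcl12 (0.992). Between ligands, r was 0.966 for Ccl25 and Cxcl12, the highest of the pairs, and 0.686 for Ccl25 and Il7, the lowest. Over the cells of the E15.5, E17.5 and NB cTEC libraries, among 6067 genes, Ccl25 ran with Tbata (mean r 0.721, from 0.630 to 0.766 in the 3 libraries), Krt18 (0.678), Ctsl (0.672), Psmb11 (0.634) and Cstb (0.624). Cxcl12 ran most with Ccl25 itself (0.303), Cd74 (0.287) and Ctsl (0.256). For Il7 no gene passed a mean r of 0.153 (Ctsl). For Dll4 and Kitl the highest was 0.103 (Psmb11) and 0.0586 (Birc5), which in counts this sparse is not a finding.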

How the data were processed

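Libraries were made by the authors with Chromium Single Cell 3′ version 2 chemistry and counted per gene and cell with Cell Ranger 2.0.1 against mm10, per the submitters' notes; the file headers of data set 2 name a later version, which may have been used in place of it. The deposited matrices hold raw UMI counts per gene and called cell. Cells kept by the limits of the study (5% mitochondrial UMIs, 5000 genes) equalled the numbers it states for data set 1 and differed from them in data set 2. Cells were clustered per data set (Leiden, resolution 0.8, scanpy 1.11.5, leidenalg 0.10.2), and a cluster was set aside when at least 3 and over 50% of a class's markers were 4-fold above the other cells; mTEC clusters were named at a fold of 2. No doublet caller was run; pairs were recomputed without the 10% of cells with most UMIs.

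Counts were summed per library and tested with edgeR 4.0.16 (filterByExpr, TMM, quasi-likelihood, data set as a term, Benjamini-Hochberg over all genes, threshold 0.05), and alternatively with DESeq2 1.42.0. Standard errors are the estimate over the root of F. On simulated counts with 200 changed genes, 194 were recovered in the age trend (log2 slope 1), 157 between lineages and 148 between adult and earlier cTEC (log2 difference 2). False calls made up 4.43%, 0% and 5.73% of the calls. The changed genes were drawn from those with a higher mean level, and the largest ligand slope was 0.45. These rates thus do not give the power for ligands that were not called. Pearson's r over cells used log-normalised counts. The ligands, the gene lists and the rule for named genes (list genes past the threshold, and the genes most like each ligand) were chosen with earlier results of these data known. FoxN1MycTg libraries were not analysed here.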

Additional observations from a re-analysis of the deposited data

How the results depend on the processing

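Between adult cTEC and adult mTEC, Cxcl12, Kitl, Ccl25 and Dll4 stayed higher in cTEC and past the threshold under all 10 alternatives, with adjusted p-values of at most 0.0411. Il7 was past it in 3 of 10: its log2 difference was 1.10 with DESeq2, 1.06 without a filter on low counts and 1.07 with the data set term dropped, none called. With each adult library left out in turn, which needs the term for the data set dropped, Il7 ranged from 0.702 to 1.43 (1.24 without adult cTEC 1 and 0.842 without adult cTEC 2), not called, and the genes called from 1528 to 2874 (2417 without adult cTEC 2) against 5063, and DESeq2 called 2572. In the age trend, no ligand was called under any of 11 alternatives; the slope of Dll4 was 0.186 without adult cTEC 1, and that of Kitl 0.175 without adult cTEC 1, -0.0459 without adult cTEC 2 and -0.0487 in data set 1 alone. Genes called were 1083, 2835 with DESeq2, 438 in data set 1 alone and 16 and 460 without adult cTEC 1 and 2.

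Between adult and earlier cTEC, Il7 stayed negative under all 12 alternatives and was called under 2, DESeq2 (-0.97) and no filter on low counts (-1.14). Values near 0 changed sign. Kitl was 0.0487 with DESeq2 size factors, 0.0485 with DESeq2, 0.0439 with the data set term dropped, 0.671 without adult cTEC 1, -0.605 without adult cTEC 2, 0.12 without E15.5 and 0.12 without NB cTEC. Ccl25 was -0.11 without a filter, -0.011 with non-epithelial clusters kept, -0.0207 with all deposited cells, 0.574 without adult cTEC 1, -0.487 without adult cTEC 2, -0.0514 without the haemoglobin and Hhex clusters, -0.0552 without E15.5 and -0.45 without E17.5 cTEC. Cxcl12 was 0.622 without adult cTEC 1, -0.127 without adult cTEC 2 and -0.0862 without E17.5 cTEC. Genes called were 804, 1863 with DESeq2, 2471 without a filter, 513 with the data set term dropped and 1760 without NB cTEC. They were 0 by edgeR without adult cTEC 1, adult cTEC 2 or E17.5 cTEC, where 1257, 2673 and 2493 genes had an unadjusted p under 0.05; DESeq2 was not run on these. The settings without E15.5, E17.5 or NB cTEC, without both clusters, and without library and data set term together were chosen after seeing the data. The causes were not tested.

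No cell selection moved a ligand's CPM by more than 1.12-fold. Shares depend on the thinning depth by construction, and each of the 69 pair ratios stayed within its counting interval at 3000 UMIs and without the cells with most UMIs, though some fell below 1. The widest moves were 1.89-fold at 3000 UMIs, for Il7 with Kitl in adult mTEC 2 (1.29 to 0.683), and 1.47-fold without the cells with most UMIs, for Ccl25 with Cxcl12 in adult mTEC 1 (0.399 to 0.271). Depth limits Dll4 most, with 43 and 206 UMIs in the adult cTEC libraries. The labels give no replicate numbers, and adult libraries were numbered by data set. The term for the data set thus pairs 1 cTEC with 1 mTEC library, and the fit with that term dropped is the unpaired one.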
